A study of Saccharomyces cerevisiae with 9 samples.

Results

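The genes described here are switched on in one or the other mating type of haploid budding yeast: 7 genes that are active in a cells (STE2, STE6, BAR1, MFA1, MFA2, AGA2 and ASG7) and 3 that are active in alpha cells (STE3, SAG1 and MF(ALPHA)1). They were chosen by name and not by a rule on their values, but with earlier results of these data known. They are 10 of the 5449 genes on the arrays. Each was read from 1 probe set, the brightest where a gene had several. Their transcript levels were read in 9 cultures of strain JPY12, each hybridised to its own 1-colour Affymetrix array. All strains, the wild type included, carried histone H3 on a plasmid (pEMH7). Residue 42 of that H3 was lysine in wild type (n = 3), and it was alanine in K42A, leucine in K42L and glutamine in K42Q (n = 2 each). Cells grew in rich YPD medium to log phase.

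An a cell and an alpha cell recognise each other through secreted peptides. The a cell secretes a-factor and carries the receptor for alpha-factor, and the alpha cell does the reverse. The transcription factor Mcm1 switches on the a-specific genes by itself or with Ste12. In alpha cells the repressor alpha2 binds beside Mcm1 at these genes and recruits the co-repressor Tup1-Cyc8, while the activator alpha1 works with Mcm1 at the alpha-specific genes. Unexpressed copies of the mating-type genes lie at HML and HMR, where Sir proteins keep them silent through histones.

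The labels give no mating type. Of the a-cell genes, the 7 lay above the background of every array, with STE2 between 1175 and 2088. Of the alpha-cell genes, STE3 (27.3 to 62.7) and SAG1 (99.6 to 268.9) also lay above background on every array, and MF(ALPHA)1 (4.8 to 16.1) on 8 of 9. Signals are linear intensities that had been scaled to a common trimmed mean of 150.1 on each array, and changes are therefore relative to that mean. Probe sets of another yeast species gave the background. It split the arrays into a set of low background (K42L, K42Q and wild-type replicate 1; median 1.0 to 1.3) and a set of high background (K42A and wild-type replicates 2 and 3; median 2.2 to 2.7). The labels name no such batch, so both sets are known only from the values. K42A and K42Q also had more signal in dim probe sets, with a median of 27.4 to 32.4 over all probe sets, against 15.4 to 18.8 in K42L and wild type. The 3′ minus 5′ difference of the TDH1 control, a sign of RNA integrity, was 0.40 and 0.50 (log2) in K42A, 0.24 and 0.23 in K42Q, 0.73 and 0.72 in K42L and 0.56 to 0.64 in wild type. For the ACT1 control it was 0.24 and 0.28 in K42A, 0.08 and 0.15 in K42Q, 0.15 and 0.19 in K42L and 0.24 to 0.25 in wild type. K42L thus lay above wild type by TDH1 and below it by ACT1. The part of RNA integrity in the results was not tested. Scaling to spike-in controls within each set moved the median of all genes tested to 0.17 in K42A, to 0.18 in K42Q and to 0.06 in K42L. It also changed the split of genes called higher and lower, from 925 and 807 to 1328 and 144 in K42A, from 873 and 745 to 1365 and 217 in K42Q, and from 13 and 14 to 10 and 3 in K42L. Median centring gave 734 and 1198 in K42A, and quantile scaling 705 and 947 in K42Q.

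In K42A, 5 of the a-specific genes were lower than in wild type, by 0.55 to 0.72 on the log2 scale, while ASG7 and the alpha-specific SAG1 and STE3 were higher. In K42Q the same 5 a-specific genes (STE2, STE6, BAR1, MFA2 and AGA2) were lower, by 0.42 to 0.60, and STE3 was higher. MF(ALPHA)1 was also called higher in K42Q, but that call ended in 12 of 16 alternative settings. In K42L no member passed the test against wild type. The RNA came from whole cultures, in which fewer cells with a transcript and less of it per cell cannot be told apart. These statements use limma on log2 signals across the 4087 genes above the filter, with a gene called where its Benjamini-Hochberg adjusted p was under 0.05. STE3 and MF(ALPHA)1 lay below the filter, a signal of 87.0, and were tested only in a fit with no filter. The 3 comparisons share the wild-type arrays and are not independent of each other.

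In K42A versus wild type, 7 of the 8 members tested were called, 2 higher and 5 lower, where 42.4% of all genes tested were called, 22.6% higher and 19.7% lower. Their arrays did not overlap with those of wild type for 8 of 8 members, 2 higher and 6 lower, against 31.5% of all genes higher and a further 31.5% lower. In K42Q versus wild type, 5 of 8 were called, all of them lower, where 39.6% of all genes were called, 21.4% higher and 18.2% lower. There the arrays did not overlap for 6 members, 1 higher and 5 lower, against 31.2% and 28.1% of all genes. In K42L versus wild type 0 of 8 were called by limma, 3 had an unadjusted p under 0.05, and 0.661% of all genes were called, 0.318% higher and 0.343% lower. Arrays did not overlap for 4 members in K42L, 2 higher and 2 lower, against 18.3% and 14% of all genes. The median difference of the 7 a-specific genes was -0.56 in K42A, -0.46 in K42Q and 0.02 in K42L, beside medians of -0.01, 0.00 and 0.01 over all genes tested. Array by array, the median of the 7 relative to the wild-type mean was -0.56 and -0.61 in K42A and -0.60 and -0.38 in K42Q. On the other arrays it was 0.08 and -0.03 in K42L and 0.13, -0.08 and -0.05 in wild type.

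**Figure D1:**
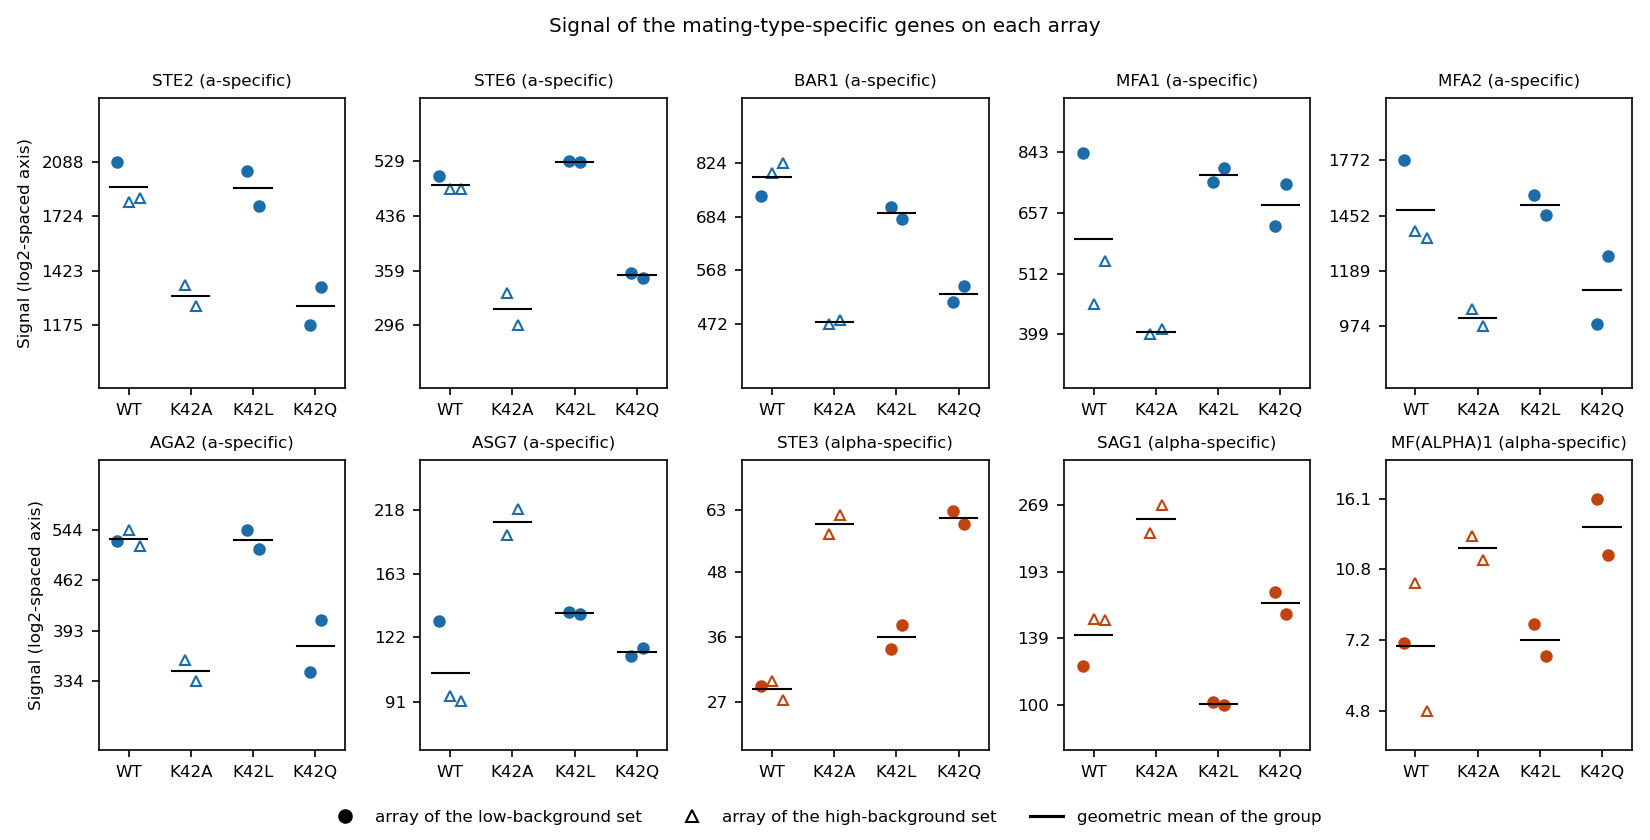
Signal of the 10 genes on each array (vertical axis log2-spaced, with its own range for each gene), with filled circles for the low-background set, open triangles for the high-background set and a line at the geometric mean of each group. STE2, STE6, BAR1, MFA2 and AGA2 lie lower on the K42A and K42Q arrays than on every wild-type array, and STE3 lies higher.

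Of the receptor and transport genes of the a cell, STE2 (YFL026W) encodes the receptor for alpha-factor. Its signal was 2087.8, 1809.0 and 1838.5 on wild-type replicates 1, 2 and 3, 1352.9 and 1255.1 in K42A, 1174.8 and 1343.0 in K42Q, and 2021.1 and 1785.7 in K42L. All 4 arrays of K42A and K42Q lay below every array of K42L and wild type. The log2 difference from wild type was -0.55 ± 0.10 (SE) in K42A (adjusted p = 0.00237), -0.60 ± 0.10 in K42Q (adjusted p = 0.00154) and -0.01 ± 0.10 in K42L (adjusted p = 0.981). STE2 in wild type was thus 1.46 times its K42A level. STE6 (YKL209C) encodes the ATP-driven transporter that exports a-factor. Its signal was 502.8, 479.1 and 479.2 in wild type, 331.2 and 295.7 in K42A, 356.4 and 349.8 in K42Q, and 529.1 and 527.6 in K42L. The K42L arrays lay just above wild type, and those of K42A and K42Q lay well below. The difference was -0.64 ± 0.07 in K42A (adjusted p = 0.000131), -0.46 ± 0.07 in K42Q (adjusted p = 0.000772) and 0.12 ± 0.07 in K42L (adjusted p = 0.385).

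BAR1 (YIL015W) encodes the secreted protease with which a cells degrade alpha-factor. Its signal was 735.3, 796.9 and 824.5 in wild type, 471.5 and 478.0 in K42A, 509.5 and 537.2 in K42Q, and 706.1 and 679.3 in K42L. All mutant arrays were below wild type, with K42L closest to it. BAR1 had the most negative difference of the 10 genes in K42A, -0.72 ± 0.07 (adjusted p = 7.43e-05), and it was -0.58 ± 0.07 in K42Q (adjusted p = 0.000238). In K42L it was -0.18 ± 0.07 and not called (adjusted p = 0.225). AGA2 (YGL032C) encodes the adhesion subunit of a-agglutinin, which binds the agglutinin of the alpha cell. Its signal was 524.0, 544.3 and 516.6 in wild type, 357.0 and 333.7 in K42A, 343.6 and 406.3 in K42Q, and 543.8 and 510.6 in K42L. K42L and wild type overlapped, and the other mutants lay below both. The difference was -0.61 ± 0.08 in K42A (adjusted p = 0.000497) and -0.50 ± 0.08 in K42Q (adjusted p = 0.00145). STE2, STE6, BAR1 and AGA2 were called lower in K42A and in K42Q under each of the 22 alternative settings tried.

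MFA1 and MFA2 encode near-identical a-factor peptides, and whether one probe set also reads RNA of the other gene cannot be told from the files. MFA2 (YNL145W) had a signal of 1771.5, 1375.6 and 1339.5 in wild type, 1037.4 and 974.5 in K42A, 981.2 and 1255.7 in K42Q, and 1564.4 and 1455.9 in K42L. Wild-type replicate 1 stood above the other wild-type arrays. The difference was -0.56 ± 0.14 in K42A (adjusted p = 0.0105) and -0.42 ± 0.14 in K42Q (adjusted p = 0.0369). The K42A call ended without K42A replicate 2 (-0.52, adjusted p = 0.0883), and the K42Q call without K42Q replicate 1 (-0.24, adjusted p = 0.306). The K42Q call also ended, at the same difference, without either K42A array (adjusted p = 0.0598) or either K42L array (adjusted p = 0.0561 and 0.0562). With spike-in scaling it was -0.24 (adjusted p = 0.162), and with only the compared groups fitted the adjusted p was 0.0954.

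MFA1 (YDR461W) had a signal of 842.7 on wild-type replicate 1, 451.5 and 540.3 on the other wild-type arrays, 399.3 and 407.3 in K42A, 622.5 and 739.8 in K42Q, and 745.1 and 790.2 in K42L. The wild-type arrays differed more from each other than the arrays of any mutant did. Both K42A arrays were below all wild-type arrays, and the arrays of K42L and K42Q lay within the wild-type range. The difference was -0.55 ± 0.21 in K42A (adjusted p = 0.0600), 0.38 ± 0.21 in K42L (adjusted p = 0.369) and 0.20 ± 0.21 in K42Q (adjusted p = 0.475), none of them called. With the background set as a block, MFA1 was called lower both in K42A (-0.29, adjusted p = 0.0210) and in K42Q (-0.31, adjusted p = 0.0469). The K42Q value then rests on wild-type replicate 1 alone. Without that array MFA1 was called higher in K42Q (0.46, adjusted p = 0.00167), against wild-type arrays of high background alone. Every low-background array (622.5 to 842.7) lay above every high-background array (399.3 to 540.3). MFA1 thus followed the background set, and its sign in K42Q depended on how the set was treated.

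ASG7 (YJL170C) takes part in shutting off the signal of the a-factor receptor when STE3 is present in an a cell. It was the only a-specific member called higher in K42A. Its signal was 194.3 and 218.2 in K42A, 131.3, 93.3 and 91.2 in wild type, 136.7 and 135.5 in K42L, and 112.3 and 116.4 in K42Q. The K42A arrays stood above all others. The difference was 0.99 ± 0.15 in K42A (adjusted p = 0.000861), a 1.98-fold higher level, and it was 1.16 with the background set as a block. In K42L it was 0.39 ± 0.15 (adjusted p = 0.225) and in K42Q 0.14 ± 0.15 (adjusted p = 0.480). The K42Q value had the opposite sign under quantile scaling (-0.09), under cyclic loess scaling (-0.01) and with the background set as a block (-0.20). It was called higher without wild-type replicate 1 (0.31, adjusted p = 0.00785). That leaves only high-background wild-type arrays, so mutant and set cannot be told apart there.

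Of the alpha-specific genes, STE3 (YKL178C) encodes the receptor for a-factor. It was dim, with a signal of 29.0, 29.6 and 27.3 on wild-type replicates 1, 2 and 3, above the 95th percentile of background on each of the 9 arrays. K42L had 34.1 and 37.9, K42A 56.7 and 61.6, and K42Q 62.7 and 59.1. The 3 groups of mutant arrays all lay above wild type, with K42A and K42Q overlapping each other and K42L between them and wild type. In the fit with no filter the difference was 1.05 ± 0.12 in K42A (adjusted p = 0.000119) and 1.09 ± 0.12 in K42Q (adjusted p = 0.00011), which is 2.07-fold and 2.13-fold. Among the 1362 genes below the filter, 53.5% were called higher in K42A and 49.5% in K42Q in that fit, so calls of this kind were common among dim genes. Over the 4 other scalings the difference ranged from 0.42 to 1.23 in K42A and from 0.50 to 1.27 in K42Q, and it was called in each. The lowest values came under quantile scaling.

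SAG1 (YJR004C) encodes alpha-agglutinin, the adhesion protein that binds a-agglutinin. Its signal was 121.3, 153.2 and 152.5 in wild type, 234.0 and 268.9 in K42A, 174.5 and 156.6 in K42Q, and 101.1 and 99.6 in K42L. The K42A arrays were the highest and the K42L arrays the lowest, with no overlap between the 4 groups. The difference from wild type was 0.83 ± 0.12 in K42A (adjusted p = 0.000725), a 1.77-fold higher level, and 0.71 with the background set as a block. In K42L it was -0.50 ± 0.12 and not called (adjusted p = 0.0965), and in K42Q 0.22 ± 0.12 and not called (adjusted p = 0.163). With the background set as a block SAG1 was called higher in K42Q (0.45, adjusted p = 0.00689), where it was set against wild-type replicate 1 alone. Spike-in scaling gave 0.40 there (adjusted p = 0.0447).

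MF(ALPHA)1 (YPL187W) encodes most of the alpha-factor made by alpha cells. Its signal was 7.1, 10 and 4.8 in wild type, 13.1 and 11.4 in K42A, 16.1 and 11.7 in K42Q, and 7.9 and 6.6 in K42L. It passed the 95th percentile of background, 4.4 to 9.6, on 8 of 9 arrays. The difference in the fit with no filter was 0.81 ± 0.33 in K42A (adjusted p = 0.0691) and 0.97 ± 0.33 in K42Q (adjusted p = 0.0377). The K42A value changed sign under quantile scaling (-0.20) and cyclic loess scaling (-0.31). The K42Q call ended in 12 of 16 alternative settings, among them the background set as a block (adjusted p = 0.0975) and leaving out K42Q replicate 1 (0.74, adjusted p = 0.239). MF(ALPHA)2, the second alpha-factor gene, was also below the filter, at 31.7 and 27.2 in K42A, 29.7 and 29.6 in K42Q, 9.9 and 13.7 in K42L and 12.6, 19.5 and 14.0 in wild type. Its difference was 0.96 ± 0.23 in K42A (adjusted p = 0.0077) and 0.97 ± 0.23 in K42Q (adjusted p = 0.00762), in the range common to dim genes above. AFB1, which encodes the alpha-cell barrier to a-factor, was at 194.5 and 183.9 in K42A and 154.2, 154.2 and 161.9 in wild type (0.27 ± 0.08, adjusted p = 0.0181). That call ended without K42A replicate 1 and held under 1 of 4 other scalings.

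**Figure D2:**
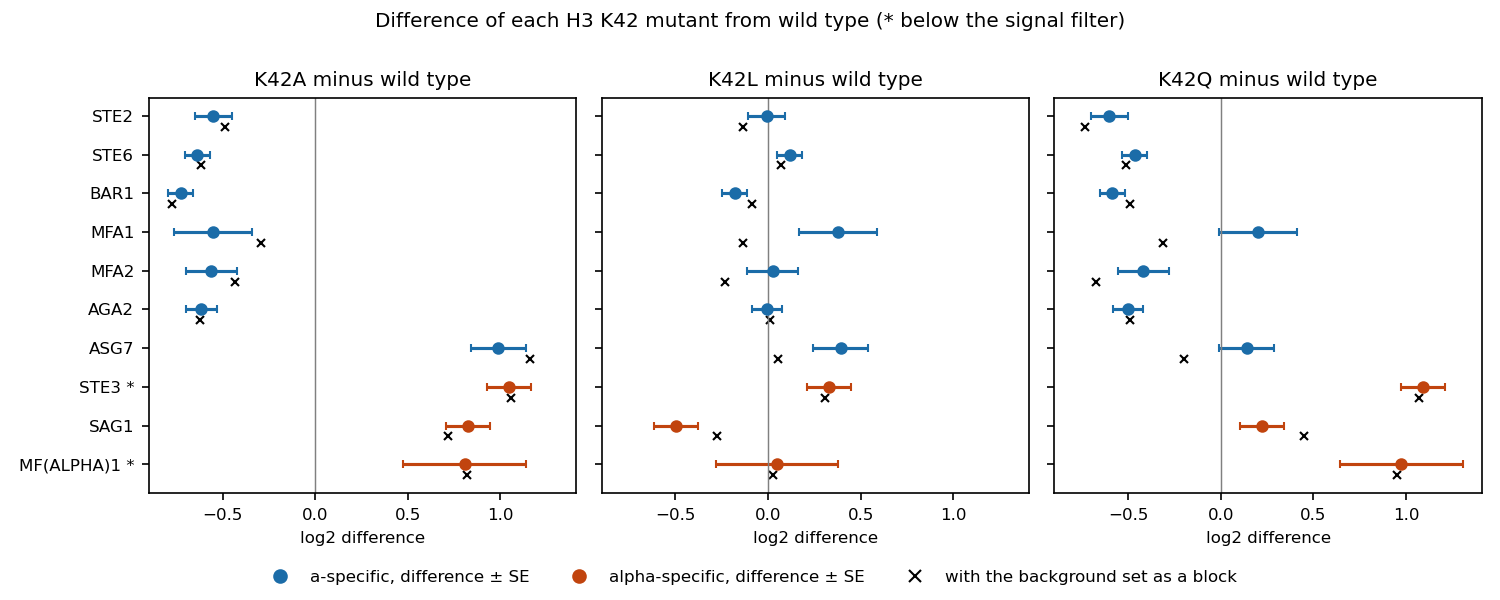
Log2 difference of each mutant from wild type for the 10 genes, with bars of 1 SE (2 mutant and 3 wild-type arrays) and crosses for the fit with the background set as a block. Genes marked with a star lay below the signal filter, and MFA1 in K42Q has the cross on the other side of 0.

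The mutants were also compared with each other. Against K42L, K42A had 8 of 8 members called, 2 higher (ASG7 and SAG1) and 6 lower, where 44% of all genes were called, 22.1% higher and 21.9% lower. The arrays did not overlap for these 2 higher and 6 lower members, against 39.3% and 40.8% of all genes. SAG1 was 1.32 ± 0.13 higher (log2, adjusted p = 0.000107) and STE6 was -0.76 ± 0.07 (adjusted p = 0.000102). K42A and K42L lie in different background sets, and with the set as a block, which joins them only through wild type, the count was 5, with STE2, MFA1 and MFA2 lost, where 32.6% of all genes were called. Without K42A replicate 2 or K42L replicate 1, each of which leaves 1 array in a group, the calls of ASG7, MFA1 and MFA2 ended. Their differences were then 0.51 and 0.60, -0.94 and -0.97, and -0.54 and -0.53. Calls over all genes also fell in these 2 fits. STE3 was 0.72 ± 0.13 in this comparison (adjusted p = 0.00198, no filter), where 49.3% of the genes below the filter were called higher, and the call ended under quantile scaling (0.21) and cyclic loess scaling (0.21).

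K42L and K42Q lie wholly in the low-background set, so their comparison does not cross the sets. Here 6 of 8 members were called, where 31.5% of all genes were called, 14.8% higher and 16.7% lower. STE2 (0.60 ± 0.11, adjusted p = 0.00347), STE6 (0.58 ± 0.07), BAR1 (0.40 ± 0.07), AGA2 (0.50 ± 0.09) and MFA2 (0.44 ± 0.15, adjusted p = 0.0498) were higher in K42L. SAG1 was lower in K42L (-0.72 ± 0.13, adjusted p = 0.00333), and so was STE3 in the fit with no filter (-0.76 ± 0.13, adjusted p = 0.00195). In that fit 40.6% of the genes below the filter were called lower, and their median difference was -0.42. The MFA2 call ended in 13 of 22 alternative settings, and it had an adjusted p of 0.00332 with the background set as a block. The call of STE3 ended under quantile scaling (-0.29) and cyclic loess scaling (-0.30). The arrays did not overlap for any of the 8 members, with 7 higher and 1 lower in K42L, against 39.1% and 37.3% of all genes. MFA1 (0.18 ± 0.23) and ASG7 (0.25 ± 0.16) were not called. ASG7 was called higher in K42L with the background set as a block (adjusted p = 0.0262), which gave 7 called members, and within the set its adjusted p was 0.0241. The BAR1 call ended with spike-in scaling (0.28, adjusted p = 0.0740).

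K42A and K42Q differed in 2 of 8 members, both higher in K42A, where 18.1% of all genes were called, 9.96% higher and 8.15% lower. K42A lies wholly in the high-background set and K42Q wholly in the low one. With the set as a block they are joined only through wild type, whose low-background array is replicate 1 alone. The arrays did not overlap for 2 higher and 3 lower members, against 34.3% and 35.7% of all genes. ASG7 was 0.85 ± 0.16 higher in K42A (adjusted p = 0.00964) and SAG1 0.60 ± 0.13 higher (adjusted p = 0.0154). Both calls ended without K42A replicate 2, K42Q replicate 1 or K42Q replicate 2, each of which leaves 1 array in a group. There ASG7 was at 0.77, 0.82 and 0.87 and SAG1 at 0.50, 0.68 and 0.52. Calls over all genes also fell in these 3 fits. Without wild-type replicate 1 the member count was 4, where calls over all 4087 genes rose from 740 to 1721. With the background set as a block ASG7 was still called (1.36, adjusted p = 0.000137), SAG1 was not (0.27, adjusted p = 0.208), and BAR1 was called lower in K42A (-0.28, adjusted p = 0.0488). MFA1 was at -0.75 ± 0.23 (adjusted p = 0.0512), and at 0.02 with the block.

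In K42A and K42Q the difference from wild type changed with a gene's signal over all genes, so the members were set beside genes of like signal. All genes were divided into quartiles by mean signal. The median difference in K42A was 0.54 in the dimmest quartile, 0.16 and 0.02 in the next, and -0.19 in the brightest, and in K42Q it was 0.46, 0.18, 0.00 and -0.11. In K42L it lay between 0.00 and 0.05. STE2, STE6, BAR1, MFA1, MFA2 and AGA2 belong to the brightest quartile of 1363 genes, with a mean signal of at least 372. In the fit with no filter, 37.6% of that quartile were called lower in K42A and 29.6% in K42Q. In K42A between 0.66% (BAR1) and 3.37% (MFA1) of that quartile had a lower value than these 6 genes. In K42Q the share was between 3.67% (STE2) and 10.8% (MFA2) for the 5 called members, and 87.2% for MFA1. ASG7 and SAG1 belong to the second quartile, of which 5.65% had a higher value than ASG7 and 8.81% than SAG1 in K42A. In the fit with no filter, 37.2% of the second quartile were called higher in K42A. STE3 and MF(ALPHA)1 belong to the dimmest quartile, where 25.7% and 35.8% of genes had a higher value in K42A and 18.3% and 21.4% in K42Q. The bright members therefore lay near the low edge of their quartile in K42A, while the 2 dim members lay inside theirs.

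**Figure D3:**
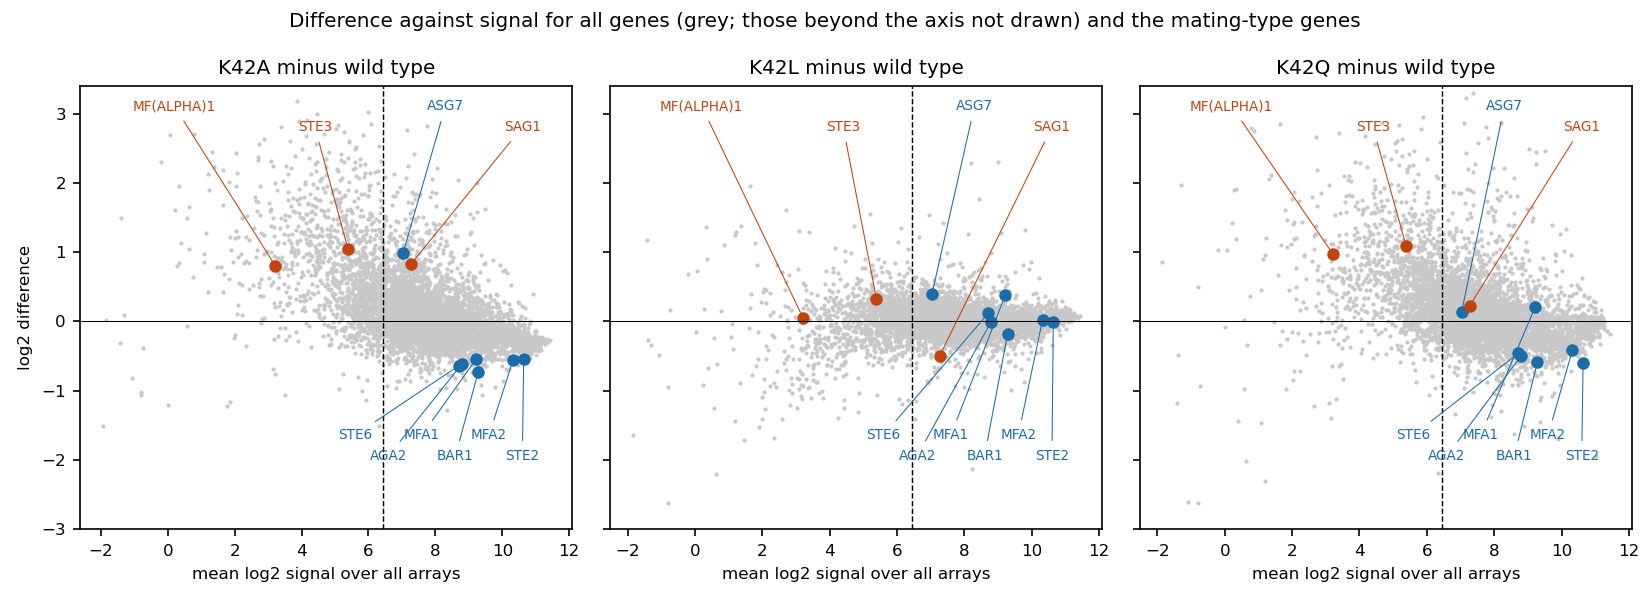
Log2 difference of each mutant from wild type against mean log2 signal over the 9 arrays, with all genes in grey, a-specific members in blue, alpha-specific members in orange and the signal filter as a dashed line. In K42A and K42Q the grey cloud slopes from high differences at low signal to low differences at high signal, and in K42L it does not.

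Lists of other genes for cell type and mating held 53 genes, of which 48 were on the array and 43 were tested. In K42A 9 of them were higher and 10 lower than in wild type, in K42Q 8 and 9, and in K42L 0 were called by limma, with 7 at an unadjusted p under 0.05. The shares called over all genes tested, 42.4% in K42A, 39.6% in K42Q and 0.661% in K42L, are close to those over all lists. The anchor of a-agglutinin, AGA1, and its relative FIG2, a cell wall adhesin of mating cells, were both higher. FIG2 had a signal of 671 and 860 in K42A, 338 and 388 in K42Q, 150 and 137 in K42L and 136, 176 and 182 in wild type. It was 2.22 ± 0.15 higher in K42A (adjusted p = 1.35e-05) and 1.15 ± 0.15 in K42Q (adjusted p = 0.000383), and K42A exceeded K42Q by 1.07 (adjusted p = 0.00483). AGA1 rose by 0.93 ± 0.14 in K42A and by 0.69 ± 0.14 in K42Q, and the latter call ended without K42Q replicate 2. The 2 subunits of a-agglutinin thus had opposite signs in both mutants, with AGA1 higher and AGA2 lower under each of the 4 other scalings.

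Pheromone signalling and haploid-specific genes had 3 higher and 6 lower of 16 tested in K42A (median -0.18), and 2 higher and 5 lower in K42Q (median -0.19), where 42.4% and 39.6% of all genes were called. With the background set as a block the counts were 3 and 7 in K42A and 3 and 6 in K42Q. The shares over all genes above are from the fit without the block, so these counts cannot be set against them. STE11, a kinase of the pheromone cascade, had a signal of 327.1 and 290.4 in K42A, 243.1 and 255.5 in K42Q, 125.3 and 101.6 in K42L and 97.5, 98.4 and 109.1 in wild type. It was 1.60 ± 0.11 higher in K42A (adjusted p = 1.53e-05) and 1.30 ± 0.11 in K42Q. STE50, its adaptor, was 0.99 ± 0.09 higher in K42A. GPA1, the G protein alpha subunit coupled to both receptors, was at 247.5 and 273.2 in K42A, 275.4 and 303.3 in K42Q, 576.6 and 608.0 in K42L and 605.9, 466.3 and 478.1 in wild type. Its difference was -0.98 ± 0.11 in K42A (adjusted p = 0.00022) and -0.83 ± 0.11 in K42Q (adjusted p = 0.000563). FAR1, needed for arrest by pheromone, was -0.78 ± 0.08 and -0.66 ± 0.08. So genes of the same cascade moved in both directions, and these 4 genes kept their calls when any 1 array was left out.

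Among 7 genes for a-factor maturation, 1 was higher and 2 were lower in K42A, near the 42.4% called over all genes, and 0 and 1 in K42Q, against 39.6%. STE14, which methylates the end of the a-factor peptide, was lower in both (-0.59 ± 0.07, adjusted p = 0.000204, and -0.63 ± 0.07, adjusted p = 0.00014). RAM2, a subunit of the enzyme that attaches farnesyl, was -0.46 ± 0.12 in K42A, and RCE1, a protease of the same route, was 0.31 ± 0.09. Both calls ended without K42A replicate 1. For alpha-factor maturation 0 of 3 genes were called by limma in K42A, where 0 had an unadjusted p under 0.05, and 0 of 3 in K42Q, where 1 did. Of the regulators, TUP1, of the Tup1-Cyc8 co-repressor, was 0.24 ± 0.08 higher in K42A (adjusted p = 0.0315), a call lost without any of 5 arrays. STE12, the transcription factor at the end of the pheromone cascade, was -0.32 ± 0.09 in K42Q (adjusted p = 0.0181), and -0.15 and not called with the background set as a block. The other 4 of the 6 regulators tested were not called in either mutant. With the block, MCM1 (-0.31, adjusted p = 0.0214) and DIG1 (-0.22, adjusted p = 0.0492) were called lower in K42Q, where they are set against wild-type replicate 1 alone.

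Of the silencing genes 1 was higher and 2 were lower of 6 tested in K42A, near the 42.4% called over all genes, and 3 and 2 in K42Q, against 39.6%. SIR1 lay below the filter, at 100.3 and 101.1 in K42A and 47.6, 60.1 and 59.8 in wild type. In the fit with no filter it was 0.86 ± 0.13 higher in K42A (limma adjusted p = 0.000599), where 53.5% of the genes below the filter were called higher. In K42Q SIR1 was at 0.20 ± 0.13 and not called. SIR2, the histone deacetylase of the silent cassettes, was at 133.3 and 139.8 in K42A, 179.6 and 182.7 in K42Q, 199.2 and 188.7 in K42L and 258.6, 234.2 and 221.1 in wild type. All mutant arrays lay below wild type, and the difference was -0.80 ± 0.08 in K42A (adjusted p = 0.000133) and -0.39 ± 0.08 in K42Q (adjusted p = 0.00588, lost without K42Q replicate 1). In K42Q RAP1, which binds the silencers, was -0.42 ± 0.08, ORC1, a subunit of the origin recognition complex, was 0.39 ± 0.08, and SIR3, a structural protein of silent chromatin, was 0.42 ± 0.13. The ORC1 call was lost without K42Q replicate 1 and held under 2 of 4 other scalings. The SIR3 call was lost with the background set as a block (0.13) and without any of several arrays, each K42Q array among them. It held under 1 of 4 other scalings. Of the mating-type locus and its silent cassettes, 3 of 8 genes were on the array and 2 were tested. The MAT and silent copies are near-identical in sequence, so their signals cannot be told apart. HMLALPHA1 had a signal of 2.6 to 7.9 and passed the 95th percentile of background on 1 array, K42Q replicate 1 (5.3 against 5.17). HMRA1 lay between 78.0 and 105.4 and was not called. HMRA2 was 0.74 ± 0.18 higher in K42Q (adjusted p = 0.0117), with 228.1 and 189.5 against 168.5, 104.2 and 110.9 in wild type. With the background set as a block it was 0.30 (adjusted p = 0.0584), and without K42Q replicate 1 the call was lost. In K42A HMRA2 was at 0.41 ± 0.18 and not called (adjusted p = 0.0999), and with the block it was called higher (0.62, adjusted p = 0.000309).

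**Figure D4:**
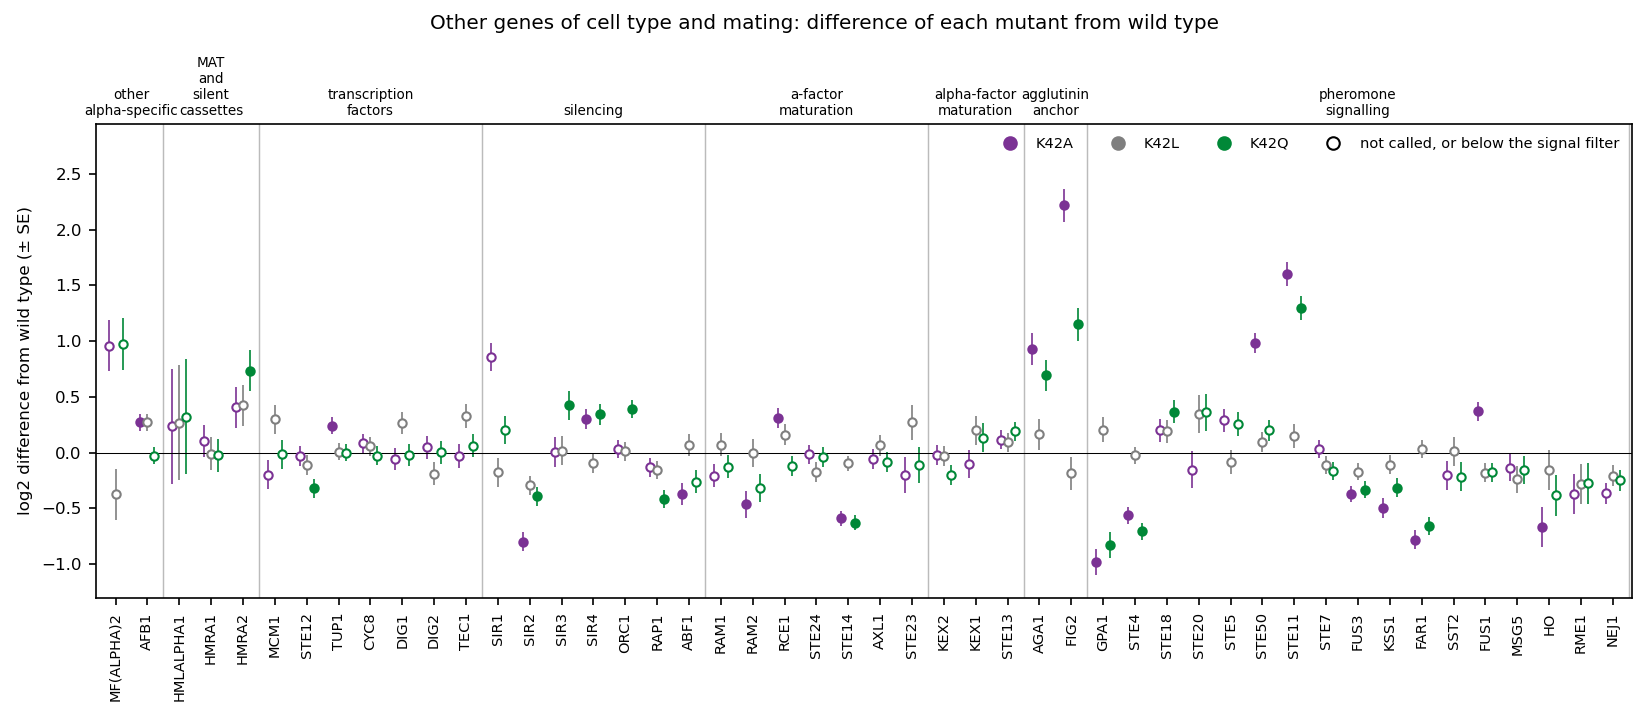
Log2 difference from wild type (± SE) of the other genes of cell type and mating, grouped by list, with filled points for genes called by limma in the fit above the filter. FIG2, AGA1, STE11 and STE50 lie highest among the tested genes in K42A and GPA1, SIR2 and FAR1 lowest.

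For 3 members the genes with the most similar pattern were sought among the 4079 genes above the filter that are not members. The measure was the root mean square difference over the 9 arrays between log2 values centred on each gene's mean. STE3 itself lay below the filter, and dim genes like it were not searched. The closest to STE2, whose log2 signal spanned 0.83, were NOP1 (0.06), ARO4 (0.06) and FSF1 (0.07). NOP1 was at -0.43 in K42A, 0.08 in K42L and -0.48 in K42Q. For SAG1, which spanned 1.43, they were PMA2 (0.10), RTA1 (0.11) and YJR149W (0.12). For STE3, which spanned 1.20, they were SSU1 (0.07), TRR2 (0.07) and OM14 (0.11), and SSU1 was at 1.01 in K42A, 0.25 in K42L and 1.07 in K42Q. None of these genes stands on the lists above.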

How the data were processed

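The authors deposited linear signal intensities, made with GCOS 1.4 and MAS5, per the submitters' processing notes. For MAS5 neither a version nor a scaling target was given in the sources used here. RNA was amplified by 1 round from an oligo-dT primer, per the labels' protocols. Of 10928 probe sets, 5498 carried 1 S. cerevisiae gene in the platform annotation and gave 5449 genes, and 1747 carried a gene of another yeast and gave the background. Of 98352 values, 126 were at 0 and were set to 0.1, the smallest positive value. No scaling was added before taking log2. Genes whose mean log2 signal fell below the 25th percentile were not tested, which left 4087, tested with limma 3.58.1 (R 4.3.3, lmFit and eBayes with an intensity trend) over all 9 arrays, with Benjamini-Hochberg adjustment. The fit with no filter covered all 5449 genes. The procedure was tested on simulated data. Plots used matplotlib 3.10.9 under Python 3.11.15.

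The members, the lists of other genes and the tests were chosen with earlier results of these data known. All 10 members are given. Of each list the text names up to 4 called genes with the largest change in K42A or K42Q, and the dim genes, the uncalled cassette genes and the regulators called only with a block were named after their values were seen. Alternatives were quantile, median, cyclic loess and spike-in scaling (27 probe sets, within each background set), filters at the 50th percentile and none, log2(signal + 16), no intensity trend, the mean of probe sets, the compared groups alone, the replicate number or background set as a block, fits within a set, and leaving out each array. For STE3 and MF(ALPHA)1 the combinations of no filter with another setting were chosen after seeing the data. Each mutant has only 2 arrays and wild type 3, which limits the precision. With the background set as a block, or within a set, K42L and K42Q rest on wild-type replicate 1 alone, which is assumed to vary like the other groups. The cultures are biological replicates, per the labels. No sequences or gene positions are given, because no genome of the arrays' build was used here.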

Additional observations from a re-analysis of the deposited data

How the results depend on the processing

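Of the single-gene values recomputed under each alternative, 1124 kept their side of the threshold and, where called, their direction, 37 became called, 57 were no longer called and 2 reversed: MFA1 in K42Q versus wild type was -0.31 with the background set as a block and -0.31 within the set. The number of members called was 5 in K42A versus K42L with the background set as a block, and in K42A versus K42Q it was 1 with a filter at the 50th percentile, which leaves out ASG7 and SAG1, and 4 with quantile scaling. When each array was left out in turn, it ranged from 6 to 8 in K42A versus wild type, 4 to 7 in K42Q and 0 to 4 in K42L, from 5 to 8 in K42A versus K42L, 0 to 4 in K42A versus K42Q and 5 to 7 in K42L versus K42Q. The 4 in K42L came without wild-type replicate 1, where MFA1 (0.64) and ASG7 (0.56) were called higher and BAR1 (-0.23) and SAG1 (-0.61) lower, among 1364 calls over all genes. There K42L, of the low-background set, was set against high-background wild-type arrays alone, so mutant and set cannot be told apart. The cause was not tested. With the replicate number as a block the number of members called was 7, 0 and 5 for K42A, K42L and K42Q versus wild type, and 8, 2 and 5 between the mutants. Same-numbered arrays correlated at -0.30 to 0.18 in their deviations. With 2 arrays per mutant the deviations of the replicates mirror each other, so these correlations cannot decide whether the numbers pair the cultures. Over all genes, calls fell from 1732 to 1102 in K42A and from 1618 to 1036 in K42Q with a filter at the 50th percentile, which tests 2725 genes. In K42L versus wild type, the 27 calls became 0 with the compared groups alone (529 at an unadjusted p under 0.05), 46 with no filter, 1 with the replicate block, 13 with spike-in scaling and 49 within the set. In K42A versus K42Q, 740 became 1292 with the compared groups alone and 399 with spike-in scaling. In K42L versus K42Q, 1288 became 2026 with the background set as a block, 2062 with the compared groups alone and 2066 within the set. Leaving out 1 array gave 921 to 2238 in K42A versus wild type, 854 to 2322 in K42Q, 0 to 1364 in K42L, 828 to 2462 in K42A versus K42L, 123 to 1721 in K42A versus K42Q and 558 to 2023 in K42L versus K42Q. STE3 and MF(ALPHA)1 are limited by their low signal over background.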
